A study of Mus musculus with 9 samples.

Results

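The cytochrome P450 genes were followed in RNA sequenced from lymphatic endothelial cells sorted from mouse livers. Genes were taken by their name, which had to be Cyp followed by a family number, a subfamily letter and a member number, and 94 of the 21936 genes in the table met this. Of the 94, 47 were put in a hepatocyte class from background knowledge of where the enzyme is mainly made, 46 in a class of other P450 genes that holds Cyp1b1, and Cyp2c23 was left without a class. The mice had undergone bile duct ligation (BDL), an operation that keeps bile from leaving the liver and so causes cholestasis, or a sham operation. There were 3 mice at 2 weeks after BDL, 3 mice at 4 weeks after BDL and 3 sham mice, per the series' design text; the sources used here do not say how long after sham surgery the cells were taken. All 9 mice carried the IL7-GFP knock-in, in which green fluorescent protein from the Il7 locus marks lymphatic endothelium, and no mouse without the reporter is among these groups. Between 20000 and 50000 cells per mouse were sorted, by a gate that the sources used here do not describe.

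The values are normalized counts, that is gene counts divided by 1 factor per library. Behind them stood 592419 reads in sham replicate 2, the shallowest library, and 2259239 to 5314381 reads in each of the others. The value of a single read was 5.26 normalized counts in that library, against 0.589 to 1.23 elsewhere. A count of 0 thus allows up to 15.8 normalized counts there, against 1.77 to 3.69 elsewhere (3 reads, counting error only). The libraries held lymphatic endothelial transcripts, with Prox1, the factor that specifies this lineage, between 444 and 1675 normalized counts under BDL and between 321 and 2209.6 in sham. A list of 15 lymphatic endothelial markers summed to 19384 to 51234 at 2 weeks and 29369 to 49826 at 4 weeks. In sham it summed to 39017, 9242 and 48248, so sham replicate 2 stood apart in these transcripts as well as in depth. They also held transcripts of other cells: the leukocyte gene Ptprc lay between 753 and 2152 under BDL and between 1345 and 2056 in sham, and the 30 hepatocyte markers summed to 6898 to 45217 under BDL and 3515 to 27117 in sham. A level here is therefore one of a mixed sample, and in such a sample fewer cells of a type and less RNA per cell cannot be told apart.

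Cytochrome P450 enzymes are heme proteins that insert 1 atom of oxygen into their substrates, with electrons from the reductase Por in the endoplasmic reticulum or from ferredoxin in mitochondria. Families 1 to 3 act mainly on drugs and other foreign compounds, and most of them are made in hepatocytes; family 4 hydroxylates fatty acids and eicosanoids, and other families handle bile acids, retinoic acid, vitamin D and steroid hormones. Members of family 1 are known targets of the aryl hydrocarbon receptor, which binds DNA with the core letters GCGTG, and Cyp1b1 is the member known from mesenchymal and endothelial cells rather than hepatocytes.

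The promoter windows of the family 1 genes are shown because these genes lay on opposite sides of sham in the results. Each runs from 250 bases before to 50 bases after the transcription start in RefSeq (build GRCm38.p6), 5′ to 3′ on the strand of the gene, and capitals mark the core GCGTG or its reverse complement CACGC. The Cyp1b1 window is chr17:79715012-79715311 (minus strand), the Cyp1a1 window chr9:57697363-57697662 (plus strand) and the Cyp1a2 window chr9:57683606-57683905 (minus strand). The Cyp1a1 window lies inside the longer gene model that GENCODE gives.
Cyp1b1: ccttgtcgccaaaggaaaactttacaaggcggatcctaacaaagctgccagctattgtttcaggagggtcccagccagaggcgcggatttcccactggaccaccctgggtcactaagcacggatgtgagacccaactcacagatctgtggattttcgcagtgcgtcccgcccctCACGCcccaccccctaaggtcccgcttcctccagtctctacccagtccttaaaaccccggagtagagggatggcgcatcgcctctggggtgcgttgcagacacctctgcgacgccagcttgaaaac
Cyp1a1: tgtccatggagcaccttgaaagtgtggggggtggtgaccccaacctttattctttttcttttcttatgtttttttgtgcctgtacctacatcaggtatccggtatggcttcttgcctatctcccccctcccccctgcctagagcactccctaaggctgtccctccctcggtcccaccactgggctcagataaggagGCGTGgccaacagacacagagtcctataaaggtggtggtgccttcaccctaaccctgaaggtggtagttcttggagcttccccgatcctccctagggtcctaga
Cyp1a2: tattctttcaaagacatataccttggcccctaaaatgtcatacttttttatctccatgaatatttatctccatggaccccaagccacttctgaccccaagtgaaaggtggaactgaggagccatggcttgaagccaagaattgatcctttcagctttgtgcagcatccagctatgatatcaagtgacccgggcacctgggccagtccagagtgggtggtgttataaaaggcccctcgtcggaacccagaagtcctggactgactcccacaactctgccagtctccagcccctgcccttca
The core was found at position −76 of the Cyp1b1 window, at position −54 of the Cyp1a1 window and nowhere in the Cyp1a2 window, counted to the first base of the match from the start site. It is a short and common word, present on either strand in 32.4% of 32851 RefSeq windows of the same length, and in 20.5% of the 83 windows of P450 genes, which covered 73 of the 94. A match is a description of these letters, and binding was not measured. Sequence outside the windows was not searched, so the lack of a match in the Cyp1a2 window says nothing about sites farther away.

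Among the P450 genes measured well enough to test, Cyp1b1 rose at 4 weeks of BDL and no other member passed the test. Of the 94 genes, 37 reached a mean of 10 normalized counts over the 9 libraries and were tested, 24 of them hepatocyte P450 genes, 12 other P450 genes and Cyp2c23; 11809 genes were tested in all. The test was limma on log2(normalized count + 1), and passing means an adjusted p below 0.05 after Benjamini-Hochberg adjustment over all genes tested. The p-values measure the spread between 3 mice per group. At 4 weeks 1 of the 37 passed, against 1.2% of all genes tested, with 1 higher (0.533% of all genes) and 0 lower (0.669%). The count alone thus says nothing particular about P450 genes. In limma 5 of the 37 had an unadjusted p below 0.05 there, against 13.7% of all genes. On reads recovered from the normalized counts edgeR called 1 and DESeq2 called 4 at 4 weeks. At 2 weeks 0 of the 37 passed in limma, against 0.0169% of all genes. An unadjusted p below 0.05 was found for 7, against 8.55% of all genes. On the recovered reads edgeR called 0 and DESeq2 called 5. Over all genes tested DESeq2 called 211 at 2 weeks and 573 at 4 weeks, where limma called 2 and 142. The DESeq2 counts below are to be read against its own counts over all genes. Between 4 and 2 weeks 0 of the 37 passed in limma, against 0% of all genes; 2 had an unadjusted p below 0.05, against 4.02%, and neither edgeR nor DESeq2 called any.

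Counted by direction, 16 of the 37 tested P450 genes lay above sham and 21 below it at 2 weeks, with a median log2 difference of −0.23 against 0.07 over all genes tested. At 4 weeks 14 lay above and 23 below, with a median of −0.34 against 0.07. The 24 hepatocyte P450 genes had a median of −0.55 at both times, and the 12 others had medians of 0.13 at 2 weeks and −0.04 at 4 weeks. These directions are not stable: 18 of the 37 at 2 weeks and 23 at 4 weeks changed sign under at least 1 of the 19 alternatives. The hepatocyte median became 0.60 at 2 weeks and 1.41 at 4 weeks with library weights, and 0.23 at 4 weeks without 4-week replicate 1. The medians describe the genes that reached the mean of 10. Cyp1b1 and Cyp2c23 reached it with a sham mean below 10, and 6 members (Cyp1a1, Cyp2c67, Cyp4f14, Cyp2c37, Cyp26a1 and Cyp8b1) reached it with both BDL means below 10. At 2 weeks 17.9% of all genes, and at 4 weeks 17%, had groups whose libraries did not overlap. Among the 37 this was so for 3 higher and 5 lower members at 2 weeks, against 10.2% and 7.71% of all genes, and for 2 higher and 2 lower members at 4 weeks, against 8.6% and 8.39%. Both BDL groups are compared with the same sham libraries, so the 2 comparisons are not independent of each other.

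**Figure D1:**
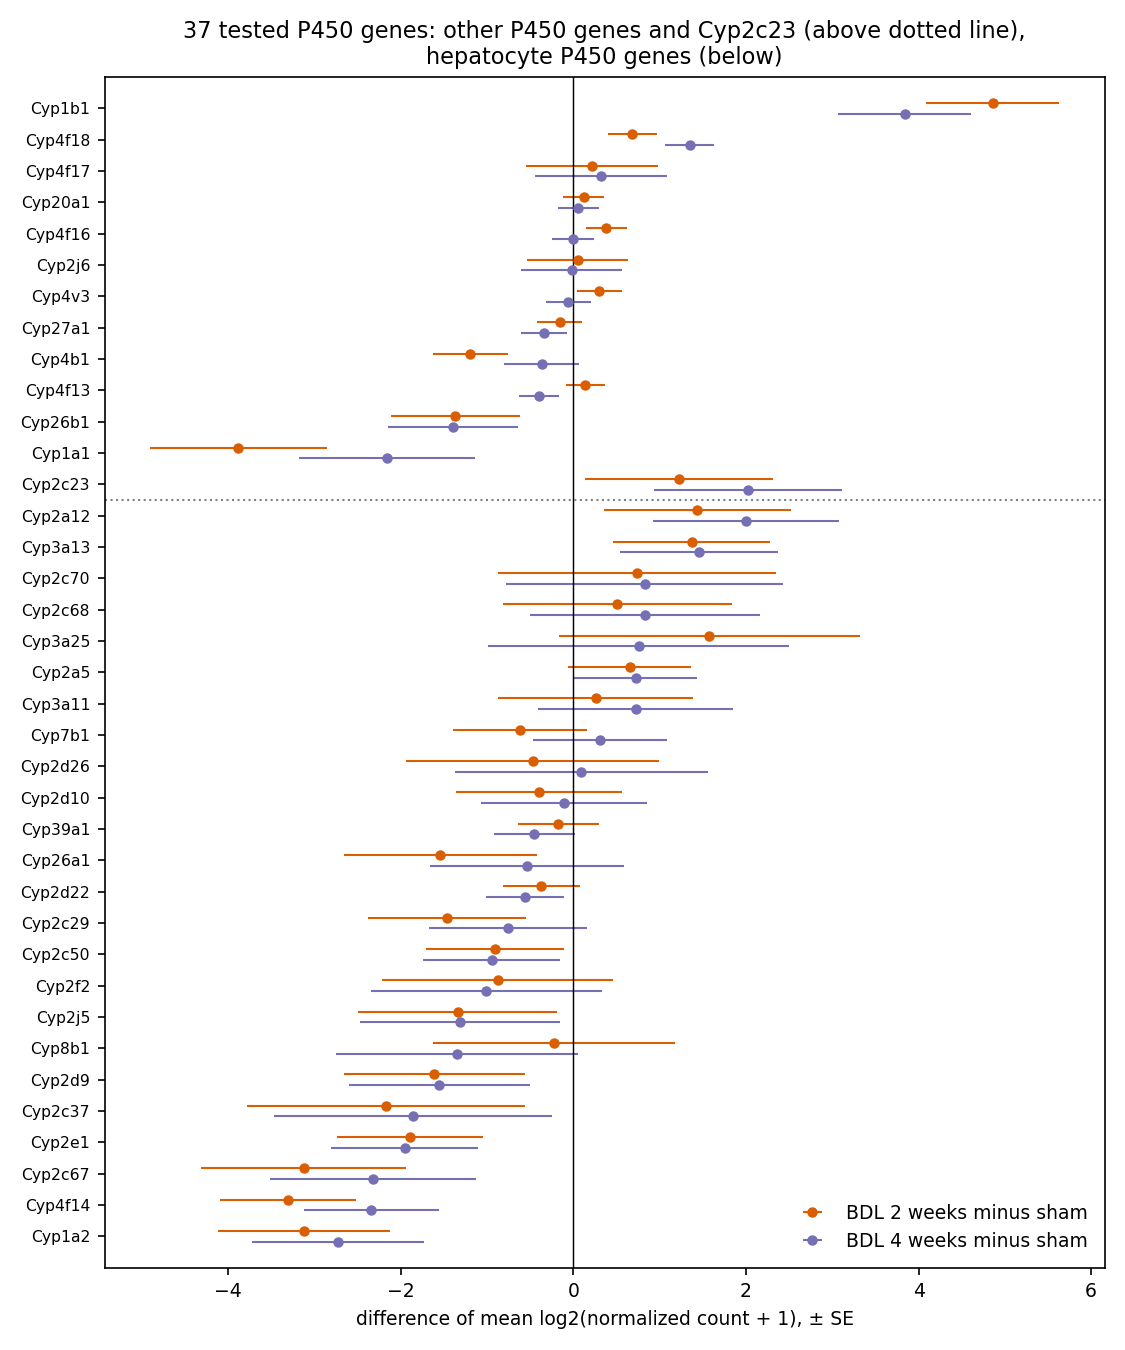
Difference from sham in mean log2(normalized count + 1) for each of the 37 tested P450 genes, with its standard error from limma, at 2 weeks (orange) and 4 weeks (purple) of BDL. Cyp1b1 lies farthest above 0 at both times, at 4.86 and 3.84, and Cyp1a1, Cyp4f14, Cyp1a2 and Cyp2c67 lie farthest below 0 at 2 weeks, between −3.88 and −3.12.

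Of the 37 tested members, Cyp1b1 had the widest difference from sham at both times. Cyp1b1, which hydroxylates estradiol, retinoids and polycyclic hydrocarbons (ENSMUSG00000024087, chr17:79701537-79715061, minus strand), was close to absent in sham. It had 33.00, 88.8 and 94.8 normalized counts at 2 weeks of BDL, 13.3, 73.4 and 31.99 at 4 weeks of BDL, and 3.67, 0 and 1.56 in sham. Every BDL library lay above every sham library, and within the BDL groups 4-week replicate 1 was lowest and 2-week replicate 3 highest. The 6 BDL values rested on 332 reads at 2 weeks and 125 reads at 4 weeks. The sham values rested on 6 reads in all, none of them in sham replicate 2, where 0 reads allow up to 15.8 normalized counts. That is above the 13.3 of 4-week replicate 1, so a separation of that library from sham replicate 2 was not established. The log2 difference was 3.84 ± 0.77 (SE, n = 3 each) at 4 weeks, with an adjusted p of 0.04798 in limma, and 4.86 ± 0.77 at 2 weeks, with an adjusted p of 0.0934 in limma, which did not pass. Both differences depend on the pseudocount because sham is near 0. The ratio of reads per recovered read does not use one, and was 16.7 at 4 weeks over sham (exact 95% interval 7.45 to 46.3) and 30.2 at 2 weeks over sham (13.7 to 82.8), counting error only. Without 4-week replicate 2 the 4-week ratio was 8.81, and without sham replicate 1, which held 4 of the 6 sham reads, it was 28.8 at 4 weeks and 52.0 at 2 weeks. Between 4 and 2 weeks the groups overlapped, with a log2 difference of −1.02 ± 0.77 that did not pass (adjusted p = 1 after rounding in limma).

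The direction of the Cyp1b1 difference from sham was the same in every alternative run, and the call was not. In many of these runs the direction could not change. Dropping the filter, fitting only the compared groups, adding a replicate block or leaving out a library of the third group leaves the difference itself unchanged. Leaving out a compared library cannot reverse groups that do not overlap. The adjusted p in limma at 4 weeks was between 0.0578 and 0.166 when any library other than 4-week replicate 1 was left out, and 0.0467 without that one. With a pseudocount of 5 it was 0.0616, with only the compared groups in the fit 0.186, in edgeR 0.0572 and in DESeq2 0.00056. At 2 weeks the adjusted p was 0.129 in edgeR and 5.01e-05 in DESeq2.

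**Figure D2:**
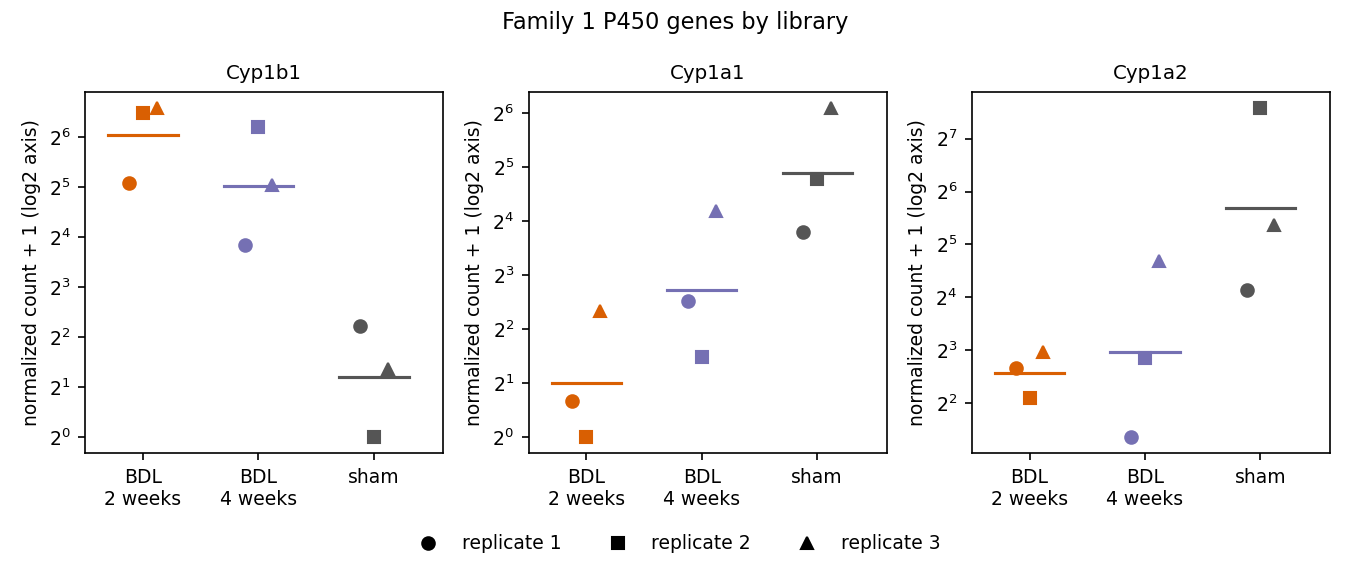
Cyp1b1, Cyp1a1 and Cyp1a2 in each library, as normalized count + 1 on a log2 axis; points are libraries and lines the mean of the log2 values, for BDL at 2 weeks, BDL at 4 weeks and sham. All 6 BDL libraries lie above the sham libraries for Cyp1b1, and the 3 libraries at 2 weeks lie below the sham libraries for Cyp1a1 and Cyp1a2.

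Markers of stellate cells and fibroblasts, cells known to make Cyp1b1, lay higher under BDL as well. All 24 markers were in the table and 21 were tested. Of the 21, 18 lay above sham at each time, 9 at 2 weeks and 8 at 4 weeks with no overlap between libraries, against 10.2% and 8.6% of all genes. Lower without overlap were 1 at 2 weeks and 0 at 4 weeks, against 7.71% and 8.39% of all genes. Col6a1, a chain of collagen VI, rose at 4 weeks (log2 difference 4.44 ± 0.87, adjusted p = 0.0418 in limma) and was the 1 marker that passed there (0.533% of all genes passed higher). At 2 weeks 0 passed, and 9 had an unadjusted p below 0.05, against 8.55% of all genes. EdgeR called 0 and 1 at 2 and 4 weeks. DESeq2 called 6 and 8, against 211 and 573 of all genes tested. Reln and Thy1 are also lymphatic genes, and the other 22 markers summed to 5483, 2374 and 2823 normalized counts at 2 weeks, 2432, 3769 and 5046 at 4 weeks, and 867, 1241 and 474 in sham. As for the Cyp1b1 values, every BDL library lay above every sham library. The order within BDL was not that of Cyp1b1: 2-week replicate 1 had the highest marker sum of all libraries and the lowest Cyp1b1 of its group. None of the 24 markers was at 0 in a BDL library, against Mfap4 and Ngfr in sham replicate 1, Col6a1, Gli1 and Ngfr in sham replicate 2, and Lum in sham replicate 3. The whole list of 24 summed to 9735 to 15039 at 2 weeks, 10328 to 18008 at 4 weeks and 2129 to 8743 in sham. The part of these cells in the Cyp1b1 result was not tested.

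**Figure D3:**
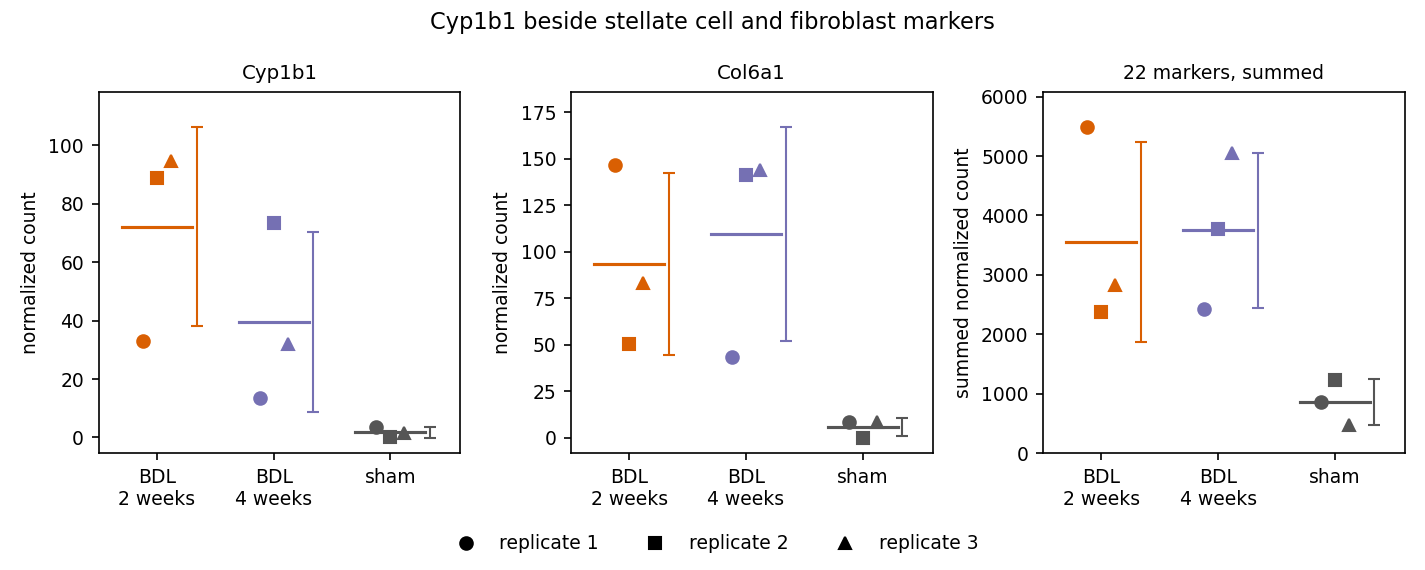
Cyp1b1, Col6a1 and the sum of 22 stellate cell and fibroblast markers in each library, in normalized counts; points are libraries, lines means and bars ± 1 SD, for BDL at 2 weeks, BDL at 4 weeks and sham. All 3 quantities are higher in every BDL library than in every sham library. The Cyp1b1 and Col6a1 values of 0 in sham replicate 2 allow up to 15.8 normalized counts. The 2-week replicate 1 is the lowest of its group for Cyp1b1 and the highest of all libraries for the marker sum.

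Cyp1a1 and Cyp1a2, known as the most inducible aryl hydrocarbon receptor targets of epithelial cells and liver, pointed the other way and did not pass in limma or edgeR, while DESeq2 called both at 2 weeks. Cyp1a1 (ENSMUSG00000032315, chr9:57687928-57703824, plus strand) had 0.589, 0 and 4.06 normalized counts at 2 weeks of BDL, 4.71, 1.79 and 17.2 at 4 weeks of BDL, and 12.8, 26.3 and 66.98 in sham. The 2-week libraries lay below all sham libraries, the 4-week libraries overlapped with sham, and sham replicate 3 was the highest. Its log2 difference from sham was −3.88 ± 1.02 at 2 weeks (adjusted p = 0.298 in limma) and −2.16 ± 1.02 at 4 weeks (adjusted p = 0.389), and in DESeq2 the adjusted p at 2 weeks was 0.00557. Cyp1a2, the hepatocyte member of the family (ENSMUSG00000032310, chr9:57676937-57683703, minus strand), had 5.304, 3.27 and 6.77 normalized counts at 2 weeks of BDL, 1.57, 6.27 and 24.6 at 4 weeks of BDL, and 16.5, 189 and 40.5 in sham. Sham replicate 2, the shallowest library, set much of the sham mean, yet the 2-week libraries also lay below both other sham libraries. On the log2 scale the difference was −3.12 ± 0.998 at 2 weeks (adjusted p = 0.434 in limma) and −2.72 ± 0.998 at 4 weeks (adjusted p = 0.263), and in DESeq2 the adjusted p was 0.00506 at 2 weeks and 0.0446 at 4 weeks. The receptor gene Ahr stood at 275 ± 49.9 normalized counts at 2 weeks, 427 ± 19.2 at 4 weeks and 339 ± 122 in sham (SD, n = 3 each). Tiparp and Ahrr, a pair of known receptor targets that restrain it, had log2 differences of −0.58 (Tiparp) and 1.05 (Ahrr) at 2 weeks and −0.55 (Tiparp) and 0.69 (Ahrr) at 4 weeks. None of these 3 genes passed in limma in any comparison, and only Ahr between 4 and 2 weeks had an unadjusted p below 0.05.

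Family 4, the fatty acid and eicosanoid hydroxylases, had 7 tested members of 17, of which 0 passed in limma at either time; 3 at 2 weeks and 2 at 4 weeks had an unadjusted p below 0.05, against 8.55% and 13.7% of all genes. Cyp4f18, known in the mouse as an enzyme of neutrophils that hydroxylates leukotriene B4 (ENSMUSG00000003484, chr8:71988482-72009626, minus strand), had 103, 66.6 and 69.04 normalized counts at 2 weeks of BDL, 149.9, 105 and 122 at 4 weeks of BDL, and 57.8, 36.8 and 52.2 in sham. The 3 groups did not overlap with each other, with 4 weeks highest and sham lowest. The log2 difference was 1.35 ± 0.28 at 4 weeks (SE, n = 3 each), with an adjusted p of 0.0535 in limma, just outside the threshold, and 0.68 ± 0.28 at 2 weeks (adjusted p = 0.537). It was the 1 P450 gene that edgeR called at 4 weeks (adjusted p = 0.0497), and DESeq2 called it as well (adjusted p = 0.00513). Exons of Cyp4f18 overlap those of Zfp961 on the opposite strand, and the sources used here do not say whether counting used strand; Zfp961 itself lay between 14.1 and 22.1 under BDL and between 5.26 and 23.4 in sham. The 15 monocyte and neutrophil markers summed to 336 to 1051 normalized counts at 2 weeks, 452 to 627 at 4 weeks and 281 to 478 in sham, with 2 or 3 markers at 0 in each BDL library and 7 to 9 in each sham library. Of the 8 tested, 1 passed in limma at 4 weeks, the neutrophil collagenase Mmp8, which was higher. Over all genes 0.533% passed higher there. The part of these cells in the Cyp4f18 values was not tested.

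Cyp4b1, an enzyme of fatty acids and foreign compounds (ENSMUSG00000028713, chr4:115624725-115647723, minus strand), had 80.2, 155 and 146 normalized counts at 2 weeks of BDL, 127, 289 and 277 at 4 weeks of BDL, and 387, 163 and 346 in sham. The 2-week libraries lay below all sham libraries and the 4-week libraries overlapped with both. Limma put the log2 difference at −1.19 ± 0.43 at 2 weeks (adjusted p = 0.489) and −0.36 ± 0.43 at 4 weeks (adjusted p = 0.752), where 1 of the 19 alternatives changed its sign. Cyp4f14, known in the mouse as a leukotriene B4 hydroxylase of liver (ENSMUSG00000024292, chr17:32905070-32917342, minus strand), had 4.13, 0.653 and 2.71 normalized counts at 2 weeks of BDL, 1.57, 9.85 and 7.38 at 4 weeks of BDL, and 23.8, 31.5 and 36.6 in sham. It was lower in all 6 BDL libraries than in any sham library, and sham replicate 2 did not stand out from the other sham libraries. The log2 difference was −3.31 ± 0.78 at 2 weeks (adjusted p = 0.265 in limma) and −2.34 ± 0.78 at 4 weeks (adjusted p = 0.221), and DESeq2 called it at both times. Cholangiocyte markers lay lower in the same libraries. Of 14 tested, 12 and 13 lay below sham at 2 and 4 weeks, 9 at each time without overlap, against 7.71% and 8.39% of all genes. Higher without overlap were 1 at 2 weeks and 0 at 4 weeks, against 10.2% and 8.6% of all genes. The list of 15 summed to 923 to 1837 at 2 weeks, 927 to 2814 at 4 weeks and 2391 to 3654 in sham, with 2 markers at 0 in 4-week replicate 1 and 1 in sham replicate 1. None of the 14 passed in limma, where 8 and 9 had an unadjusted p below 0.05, against 8.55% and 13.7% of all genes. EdgeR called 0 at each time, and DESeq2 called 2 and 5, against 211 and 573 of all genes tested. The part of cholangiocytes in the lower P450 values was not tested.

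The rest of family 4 did not pass. Cyp4v3, which acts on fatty acids, averaged 256 ± 28.2 normalized counts at 2 weeks, 203 ± 56.5 at 4 weeks and 209.9 ± 47.8 in sham (SD, n = 3 each), with exons that overlap the model Gm45753, itself under 2 normalized counts in every library. Cyp4f13 had 74.3, 84.9 and 75.1 normalized counts at 2 weeks of BDL, 51.02, 60.9 and 49.2 at 4 weeks of BDL, and 63.3, 78.9 and 70.9 in sham. Its 4-week libraries lay below those of the other groups, by −0.54 on the log2 scale against 2 weeks (adjusted p = 1 after rounding in limma) and by −0.40 against sham (adjusted p = 0.485). Between 4 and 2 weeks, where 9.4% of all genes did not overlap, 1 P450 gene (Cyp4f18) was higher and 2 (Cyp4f13 and Cyp4f16) were lower without overlap, against 4.34% and 5.06% of all genes. Cyp4f16 had 73.1, 58.8 and 63.6 normalized counts at 2 weeks of BDL, 51.8, 48.4 and 47.99 at 4 weeks of BDL, and 56.9, 42.1 and 50.6 in sham. Its 2-week libraries lay above every sham library, with a log2 difference of 0.38 ± 0.24 (adjusted p = 0.666 in limma), and its 4-week libraries overlapped with sham; with Cyp1b1 and Cyp4f18 it makes up the 3 members higher without overlap at 2 weeks. Cyp4f17 had log2 differences from sham of 0.21 at 2 weeks and 0.32 at 4 weeks.

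**Figure D4:**
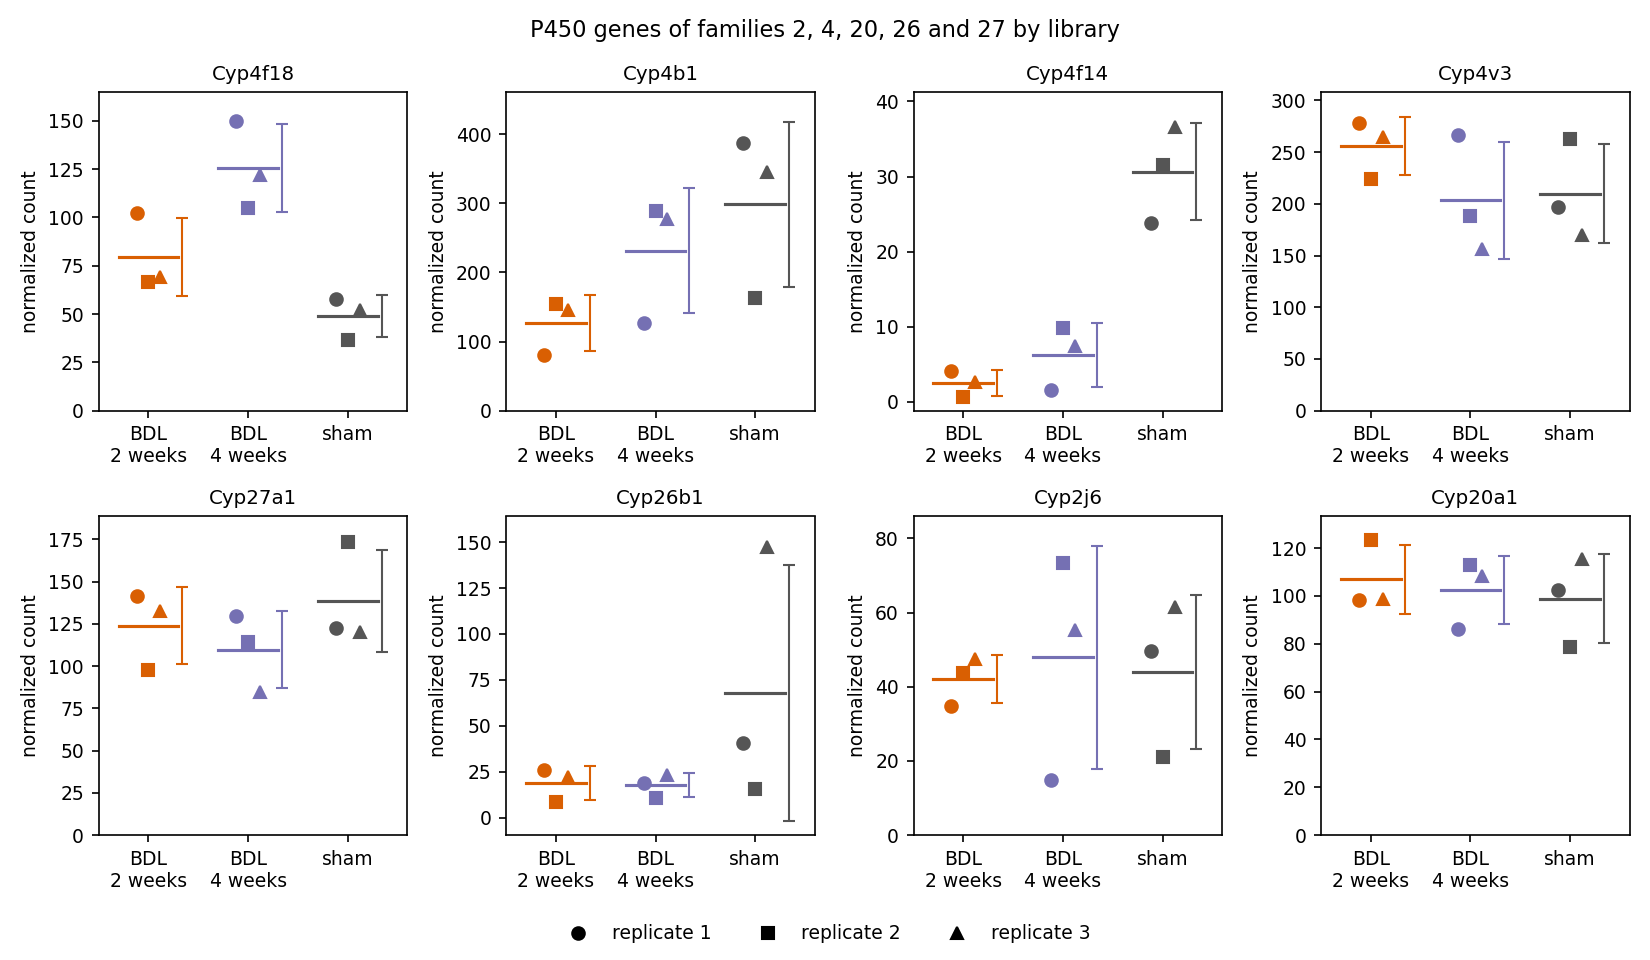
Normalized counts of 8 P450 genes of families 2, 4, 20, 26 and 27 in each library; points are libraries, lines means and bars ± 1 SD, for BDL at 2 weeks, BDL at 4 weeks and sham. Cyp4f18 is lowest in sham and Cyp4f14 highest in sham without overlap, while Cyp4v3, Cyp27a1, Cyp2j6 and Cyp20a1 overlap between the groups.

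The P450 genes of bile acid and cholesterol side-chain oxidation showed no member that passed; 4 of 6 were tested, with 0 at an unadjusted p below 0.05 in limma at either time and no call by edgeR or DESeq2. Cyp27a1, the mitochondrial sterol 27-hydroxylase that is made in macrophages and endothelium as well as hepatocytes, averaged 124 ± 22.98 normalized counts at 2 weeks, 109.7 ± 22.7 at 4 weeks and 139 ± 30.1 in sham (SD, n = 3 each). Cyp7b1, the oxysterol 7-alpha-hydroxylase, averaged 8.01 ± 3.67 at 2 weeks, 17.8 ± 11.8 at 4 weeks and 15.2 ± 10.02 in sham. Cyp39a1, another oxysterol 7-alpha-hydroxylase, averaged 18.9 ± 1.01 at 2 weeks, 16.8 ± 7.72 at 4 weeks and 21.9 ± 5.81 in sham. Cyp8b1, the sterol 12-alpha-hydroxylase that sets the share of cholic acid, averaged 9.92 ± 10.2 at 2 weeks, 3.77 ± 3.81 at 4 weeks and 19.7 ± 17.3 in sham. For each of these 4 genes the libraries of the 3 groups overlapped. Cyp7a1, the rate-limiting enzyme of bile acid synthesis, fell short of the minimum with a mean of 8.70 and between 0 and 13 reads per library.

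The retinoic acid hydroxylases were at low levels. Cyp26b1, which is known from many cells outside the liver parenchyma, had 25.9, 8.49 and 22.3 normalized counts at 2 weeks of BDL, 18.8, 10.7 and 23.4 at 4 weeks of BDL, and 40.3, 15.8 and 147 in sham. Sham replicate 3 was far above the other libraries, and the groups overlapped. Its log2 difference from sham was −1.37 ± 0.75 at 2 weeks and −1.39 ± 0.75 at 4 weeks (adjusted p = 0.624 and 0.454 in limma). Without sham replicate 3 the sham mean was 28.1, against 67.8 with it. Cyp26a1, its hepatocyte counterpart, averaged 3.32 ± 1.76 at 2 weeks, 9.21 ± 7.503 at 4 weeks and 23.8 ± 34.02 in sham; without sham replicate 2 its sham mean was 4.17, below the 4-week mean. Of the arachidonic acid epoxygenases, Cyp2j6, which is widely made, averaged 41.97 ± 6.49 at 2 weeks, 47.9 ± 29.96 at 4 weeks and 44.03 ± 20.8 in sham, and Cyp2j5, made in liver and kidney, averaged 21.3 ± 11.7 at 2 weeks, 43.7 ± 49.1 at 4 weeks and 58.6 ± 35.2 in sham. Cyp20a1, an orphan enzyme of unknown substrate, stood at 107 ± 14.3 at 2 weeks, 102 ± 14.2 at 4 weeks and 98.9 ± 18.5 in sham. Cyp2c23, an epoxygenase left without a class, averaged 14.2 ± 7.33 at 2 weeks, 28.5 ± 19.4 at 4 weeks and 9.87 ± 10.6 in sham, with log2 differences of 1.23 and 2.03 that did not pass (adjusted p = 0.755 and 0.454 in limma).

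The hepatocyte P450 genes varied within each group as the other hepatocyte transcripts did. Their summed level was 620.0, 327 and 929 normalized counts at 2 weeks, 146, 1602 and 1536 at 4 weeks, and 292, 2176 and 1219 in sham. The 30 other hepatocyte markers, such as Alb and Apoa1, summed to 20529, 9400.5 and 21732 at 2 weeks, 6898, 45217 and 28316 at 4 weeks, and 3515, 27117 and 14655 in sham. In each group the 3 libraries stood in the same order in both sums. Of the 24 tested hepatocyte P450 genes, 0 passed in limma at either time; 3 at each time had an unadjusted p below 0.05, against 8.55% of all genes at 2 weeks and 13.7% at 4 weeks. EdgeR called none, and DESeq2 called Cyp1a2, Cyp2c67 and Cyp4f14 at 2 weeks and Cyp1a2 and Cyp4f14 at 4 weeks.

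Cyp2e1, the ethanol-oxidizing enzyme of pericentral hepatocytes (ENSMUSG00000025479, chr7:140763739-140774987, plus strand), had 28.9, 28.1 and 145 normalized counts at 2 weeks of BDL, 22.8, 58.2 and 78.7 at 4 weeks of BDL, and 55.02, 452 and 255 in sham. The groups overlapped through sham replicate 1, which held the least hepatocyte RNA of all. The log2 difference was −1.89 ± 0.85 at 2 weeks and −1.95 ± 0.85 at 4 weeks (adjusted p = 0.582 and 0.344 in limma). Cyp3a11, the main drug-oxidizing P450 of mouse liver (ENSMUSG00000056035, chr5:145854426-145879964, minus strand), had 123, 67.3 and 202 normalized counts at 2 weeks of BDL, 24.3, 469 and 377 at 4 weeks of BDL, and 25.7, 299.7 and 124 in sham. It spanned a wide range in every group and the groups overlapped, with log2 differences of 0.26 ± 1.13 and 0.72 ± 1.13 (adjusted p = 0.954 and 0.813 in limma). Cyp2c67, a drug and fatty acid oxidase, had 1.77, 1.96 and 0.677 normalized counts at 2 weeks of BDL, 0.785, 10.7 and 2.46 at 4 weeks of BDL, and 3.67, 78.9 and 23.4 in sham. The 2-week libraries lay below all sham libraries, on 3, 3 and 1 reads against 4, 15 and 30 in sham. The gap to sham replicate 1 thus rests on few reads. The log2 difference of Cyp2c67 was −3.12 ± 1.19 at 2 weeks (adjusted p = 0.503 in limma). Cyp2a12, a steroid hydroxylase, averaged 49.8 ± 24.1 at 2 weeks, 106 ± 80.6 at 4 weeks and 26.04 ± 22.3 in sham, and Cyp3a25, a relative of Cyp3a11, averaged 48.1 ± 41.1 at 2 weeks, 51.2 ± 43.7 at 4 weeks and 32.2 ± 31.6 in sham; the groups overlapped for both. The other 12 tested hepatocyte members had log2 differences between −2.17 and 1.37 at 2 weeks and between −1.86 and 1.45 at 4 weeks. Close relatives in families 2 and 3 have similar sequences, so reads could be split between them, and exons of Cyp2d9, Cyp2d10, Cyp2c29 and Cyp2f2 overlap other annotated genes.

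Set against the other hepatocyte transcripts of the same library, the hepatocyte P450 genes made up a smaller share under BDL. Their sum came to 3.02%, 3.48% and 4.28% of the marker sum at 2 weeks, 2.12%, 3.54% and 5.42% at 4 weeks, and 8.30%, 8.03% and 8.32% in sham. No BDL library reached the lowest sham library, and the sham libraries lay within a narrow band although their hepatocyte sums differed widely. The divisor leaned higher under BDL. Of the 30 markers, 24 lay above sham at each time, against 6569 and 6519 of the 11809 genes tested. Their median log2 differences were 0.52 and 0.84. The undivided P450 sum averaged 626 at 2 weeks, 1094 at 4 weeks and 1229 in sham. The part of each sum in the lower share was not tested. The mean share was 0.437 of the sham mean at 2 weeks and 0.450 of it at 4 weeks. This ratio was chosen after the values were seen and carries no test. Of the markers, 6 (Fga, Fgb, Fgg, Hpx, Serpina1a and Serpina1c) are acute-phase genes, and without them the values were 0.463 and 0.492. Over Alb alone they were 0.514 and 0.651, with the highest BDL library at 24.4% and the lowest sham library at 25.9%. Cyp2e1 alone came to 0.141%, 0.299% and 0.667% of the marker sum at 2 weeks, 0.330%, 0.129% and 0.278% at 4 weeks, and 1.57%, 1.67% and 1.74% in sham. Without Cyp2e1 the sum stood at 0.492 of its sham mean at 2 weeks and 0.526 at 4 weeks. Cyp3a11 showed no such gap, with 0.597%, 0.716% and 0.928% at 2 weeks, 0.353%, 1.04% and 1.33% at 4 weeks, and 0.730%, 1.11% and 0.845% in sham.

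**Figure D5:**
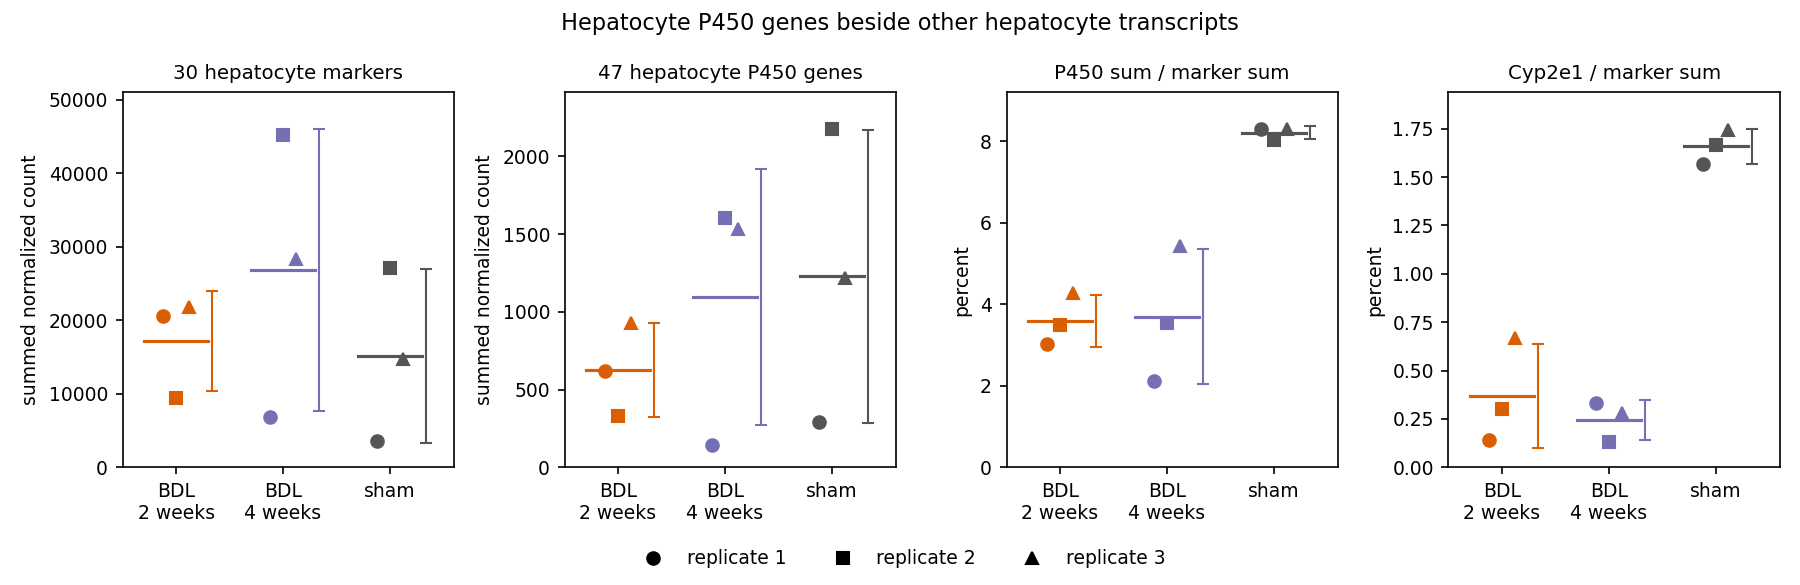
Summed level of 30 hepatocyte markers, summed level of 47 hepatocyte P450 genes, that P450 sum as a percent of the marker sum, and Cyp2e1 as a percent of the marker sum, in each library; points are libraries, lines means and bars ± 1 SD, for BDL at 2 weeks, BDL at 4 weeks and sham. The sums overlap between groups, while the P450 share lies at 5.42% or below in the BDL libraries and at 8.03% or above in sham.

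Gene by gene on this scale, 11 of the 24 tested hepatocyte P450 genes at 2 weeks and 9 at 4 weeks lay below sham without overlap, and Cyp2a12 lay above it at both times. The 9 lower at 4 weeks were Cyp1a2, Cyp2c29, Cyp2c50, Cyp2c67, Cyp2d10, Cyp2d9, Cyp2e1, Cyp2j5 and Cyp4f14, and Cyp26a1 and Cyp7b1 were added at 2 weeks. Some gaps were narrow. Cyp2d10 had 0.1347% in 4-week replicate 3 and 0.1357% in sham replicate 2, on 7 reads there. Cyp7b1 had 0.0695% in 2-week replicate 2 and 0.0775% in sham replicate 2, on 4 reads there. Cyp2a12 had 0.1934% in 4-week replicate 1 and 0.1913% in sham replicate 3. Counting error is not carried into these counts of genes. Of the 30 hepatocyte markers, scaled by their own sum, 3 lay below sham and 4 above at 2 weeks, and 4 below and 3 above at 4 weeks. Over all genes tested, the share below sham on this scale was 4.25% at 2 weeks and 4.67% at 4 weeks, and the share above was 0.601% and 0.542%. The marker sum ran from 3515 to 27117 within sham, and dividing by it adds that spread to genes that do not follow it. The shares over all genes, here and for the other divisors below, are therefore not a like background for hepatocyte genes. With the 6 acute-phase genes left out of the sum, 11 P450 genes lay below sham and 1 above at 2 weeks, against 4.29% and 0.745% of all genes. At 4 weeks 8 lay below and 0 above, against 5% and 0.694%, and Cyp2a12 no longer lay above. Over Alb alone 7 lay below and 2 above (Cyp2a12 and Cyp3a13) at 2 weeks, against 2.06% and 0.703% of all genes. At 4 weeks 6 lay below and 3 above (Cyp2a12, Cyp3a11 and Cyp3a13), against 0.991% and 0.821%.

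Per kilobase of exon, the scale on which genes can be compared, the tested P450 genes ranged from 5.36 to 97.0 normalized counts per kb over the 9 libraries, with a median of 12.4. Cyp4b1 was the highest at 97.00 per kb, followed by Cyp4v3 at 58.6, Cyp2e1 at 57.9, Cyp27a1 at 57.1, Cyp4f18 at 45.6 and Cyp20a1 at 44.96. Those 6 are 5 members from outside the hepatocyte class and 1 from within it. Cyp1b1 averaged 12.4 per kb at 2 weeks, 6.78 at 4 weeks and 0.298 in sham, a level in sham below that of every other tested member outside the hepatocyte class. Cyp4b1 averaged 56.2 per kb at 2 weeks, 102 at 4 weeks and 132 in sham.

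The other 57 members had a mean below 10 and were not tested, 23 of them hepatocyte genes and 34 others. Each had between 3 and 82 reads over the 9 libraries, and 15 had a mean below 1 normalized count. Just above the minimum stood Cyp2c68 at 12.95, Cyp26a1 at 12.1 and Cyp8b1 at 11.1, and just below it Cyp2s1 at 9.94, Cyp4a14 at 9.72 and Cyp7a1 at 8.70. Cyp2s1, Cyp2u1 and Cyp2c38 were the untested members with reads in every library. Cyp2u1, a long-chain fatty acid hydroxylase, had 4.13, 4.57 and 8.12 normalized counts at 2 weeks of BDL, 3.92, 2.69 and 2.46 at 4 weeks of BDL, and 18.3, 10.5 and 18.7 in sham. Its BDL libraries lay below all sham libraries at both times, on 2 to 24 reads per library. Cyp4a14, a target of the fatty acid receptor Ppara, had 61 of its reads in 4-week replicate 3 and at most 3 in any other library. The 6 steroid hormone synthesis genes and the 3 vitamin D hydroxylases all stood below the minimum and were not tested. Among the vitamin D hydroxylases, the 25-hydroxylase Cyp2r1 had 10.02, 8.49 and 6.77 normalized counts at 2 weeks, on 10 to 17 reads per library. In sham it had 2.75, 0 and 6.23, on 0 to 8 reads per library. The 0 in sham replicate 2 allows up to 15.8 normalized counts, above all these values, so a separation from that library was not established. The 1-alpha-hydroxylase Cyp27b1 lay below every sham library at 4 weeks on 0 or 1 read, against 2 to 5 reads in sham. Its 0 reads in 4-week replicates 1 and 3 allow up to 2.35 and 3.69, above sham replicates 1 and 3 at 1.83 and 1.56.

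The partners that P450 enzymes need were present in all groups. Of the 18 electron transfer and heme genes 17 were tested, and 0 passed in limma in any comparison. In limma 0, 2 and 2 had an unadjusted p below 0.05 at 2 weeks, at 4 weeks and between them. Over all genes the shares were 8.55%, 13.7% and 4.02%. Neither edgeR nor DESeq2 called any of the 17. Por, the reductase of microsomal P450 enzymes, averaged 619.8 ± 152 normalized counts at 2 weeks, 791 ± 189 at 4 weeks and 681 ± 262 in sham (SD, n = 3 each). Hmox1, which breaks heme down, averaged 3585 ± 1289 at 2 weeks, 1980.3 ± 1075 at 4 weeks and 2922 ± 2005 in sham, Cyb5r3, a cytochrome b5 reductase, 1198 ± 224 at 2 weeks, 1278 ± 229 at 4 weeks and 1021 ± 55.98 in sham, and Cyb5b, the mitochondrial cytochrome b5, 304 ± 54.7 at 2 weeks, 353 ± 77.8 at 4 weeks and 475 ± 203 in sham. Among 18 regulators of P450 genes 13 were tested. Nr1h3, the oxysterol receptor LXR alpha, fell at 4 weeks and was the 1 that passed in limma and in edgeR. Over all genes 0.669% passed lower at 4 weeks in limma. Nr1h3 had 862, 327 and 512 normalized counts at 2 weeks of BDL, 184, 218 and 161 at 4 weeks of BDL, and 768, 1036 and 533 in sham. The 4-week libraries lay below all sham libraries, with a log2 difference of −2.01 ± 0.36 (adjusted p = 0.0335 in limma). DESeq2 called Nr1h3 lower at 4 weeks against both sham and 2 weeks, and Vdr, the vitamin D receptor, higher at 4 weeks than in sham. Nr1h3 is also known as a gene of Kupffer cells. Of 18 macrophage and Kupffer cell markers, 14 lay below sham and 4 above at 4 weeks, where 5289 of the 11809 genes tested lay below. In limma 2 markers passed lower, where 0.669% of all genes passed lower. At 2 weeks 11 lay above sham and 7 below, where 6569 of the genes tested lay above. These markers summed to 46096 to 94332 at 2 weeks, 27963 to 59346 at 4 weeks and 39640.2 to 85388 in sham, none at 0 in any library. Their part in the Nr1h3 result was not tested. Nr1i2 and Nr1i3, the drug-sensing receptors PXR and CAR, were below the minimum for testing.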

How the data were processed

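RNA of sorted liver lymphatic endothelial cells was sequenced from 9 IL7-GFP knock-in mice (3 at 2 weeks of BDL, 3 at 4 weeks of BDL, 3 sham). Per the labels' protocols, the cells were sorted into TRIzol and the libraries were depleted of ribosomal RNA. Per the submitters' processing notes, build mm10 was used with DESeq2 1.22.1, StringTie 1.3.3b, HISAT2 2.1.0 and Trim Galore 0.5.0; the sources used here give neither order nor settings, nor whether counting used strand. The authors' deposited table holds a normalized signal, gene counts divided by 1 factor per library, for 21936 protein-coding genes. Values in a column were whole multiples of its smallest value above 0: 100.0% of 197424 values came out whole within 0.001, and edgeR on these recovered reads called 2 genes at 2 weeks, 167 at 4 weeks and 0 between the 2 times.

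The main test was limma 3.58.1 (R 4.3.3) on log2(normalized count + 1), a mean per group over all 9 libraries, empirical Bayes with trend, two-sided, with Benjamini-Hochberg adjustment over 11809 genes whose mean reached 10; an adjusted p below 0.05 passed. Limma called 2, 142 and 0 genes. Fold changes on this scale understate low genes. Alternatives were a pseudocount of 5, no filter, TMM and quantile scaling, only the compared groups, a replicate block, library weights, edgeR 4.0.16, DESeq2 1.42.0 and leaving out libraries. The procedure was tested on simulated data. The simulated counts were drawn independently for each gene, without the shared variation of mixed samples.

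Named P450 genes are Cyp1b1, those passing or with an unadjusted p below 0.05, the up to 4 most abundant of each role and class, and those nearest the minimum; marker and pathway lists give members that passed, or the 4 most abundant. Others, such as Cyp4f16, Cyp4f17, Cyp2r1, Cyp27b1 and Vdr, are named after their values were seen. The members, lists and tests were chosen with earlier results of these data known, and the hepatocyte ratio and the summed 22 markers after the values were seen. Coordinates and exon lengths come from GENCODE release M21 (GRCm38, the assembly of mm10), in which all 94 members were found by gene ID with the same symbol. Promoter windows come from RefSeq. No pairing of libraries by replicate number was seen in the values, and the main test used none. Precision is limited by the depth of sham replicate 2.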

Additional observations from a re-analysis of the deposited data

How the results depend on the processing

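The genes with an unadjusted p below 0.05 in a comparison (Cyp1a1, Cyp1a2, Cyp2c67, Cyp2e1, Cyp4b1, Cyp4f13, Cyp4f14 and Cyp4f18), and Cyp1b1, kept their direction in that comparison under the 19 alternatives. Several alternatives cannot alter a difference: no filter, only the compared groups, a replicate block, and leaving out a library of the third group. Genes picked by a low p are also less likely to change sign. Of all 37 tested, 18 changed sign under at least 1 alternative at 2 weeks, 23 at 4 weeks and 22 between the times. The count of P450 genes that passed at 2 weeks was 0 and became 7 with library weights, 5 in DESeq2 and 2 without sham replicate 2 and 4-week replicate 1 together; leaving out 1 library gave 0 each time. At 4 weeks it was 1 and became 9 with library weights, 4 in DESeq2, 2 with quantile scaling, 2 without those libraries, and 0 with only the compared groups; leaving out 1 library gave between 0 and 1. The cause was not tested. With a pseudocount of 5 and in edgeR the 1 gene at 4 weeks was Cyp4f18 in place of Cyp1b1. Between 4 and 2 weeks it was 0 in all. Over all genes, 2 passed at 2 weeks, 1112 with library weights and 211 in DESeq2; at 4 weeks 142 passed, 1608 with library weights, 573 in DESeq2 and 53 with only the compared groups. Between 4 and 2 weeks 0 passed, 349 with library weights and 76 in DESeq2.

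Libraries with the same replicate number did not clearly deviate together (correlations of deviations from −0.445 to 0.228). No pairing by number was seen, and the main test used none. With a replicate block 0 P450 genes passed at 4 weeks, and 84 of all genes.

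The share of hepatocyte P450 genes among hepatocyte markers, relative to sham, lay between 0.396 and 0.472 at 2 weeks and between 0.345 and 0.546 at 4 weeks when 1 library was left out. Without both Cyp2e1 and Cyp3a11 it was 0.438 at 2 weeks and 0.449 at 4 weeks. The depth of sham replicate 2 limits the comparisons with sham for genes near its floor.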
